A study of Mus musculus with 19 samples.

Results

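Ifit1, Ifit2, Ifit3, Ifit3b, Isg15, Usp18, Rsad2, Mx1, Mx2 and Ifi44 are 10 interferon-stimulated genes of the mouse, most of whose products block steps of viral replication. They were taken by name from a table of gene counts with 25239 symbols, and all 10 passed the filter on low counts, which left 14301 genes for testing. The libraries came from heart tissue of wild-type and Mcm8-/- mice given PBS or LCWE in a model of Kawasaki disease, a vasculitis of childhood. LCWE is the Lactobacillus casei cell wall extract that brings on coronary arteritis in mice, PBS, a saline buffer, is the control treatment, and Mcm8 encodes a helicase of DNA repair. PBS was given to 5 wild-type and 3 knockout samples, and LCWE to 6 wild-type and 5 knockout samples. Strain, age, sex, dose and time after injection are not stated in the labels, and neither is the form of the Mcm8 allele. No label says whether the libraries of a group came from separate animals, so p-values measure only the spread between these samples, which may be technical.

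Type I and type III interferons bind receptors that activate JAK kinases. The signal ends at the interferon-stimulated response element, a DNA motif in the promoters of responsive genes. IRF3 and IRF7 can bind the same kind of element, so part of the programme can start from nucleic acid sensors without a receptor. IFIT proteins bind viral RNA that lacks host cap marks, MX proteins are GTPases that trap viral nucleocapsids, and RSAD2, or viperin, makes a nucleotide that stops viral polymerases. ISG15 is a ubiquitin-like protein joined to other proteins by interferon-induced enzymes, and USP18 removes it and also restrains signalling at the type I receptor. The role of IFI44, an interferon-induced cytoplasmic protein, is less well defined.

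The response element is printed here because it is what the promoters of these genes can share beyond their names. RefSeq promoters on GRCm38.p6, covering 250 bases before to 50 after each annotated start, matched 7 of the 10 genes. Its core, GAAA followed by any 2 bases and another GAAA, was searched on both strands and occurred in 5 of the 7, and in 3.43% of 32817 mouse promoters of the same length. The stretches below run 5′ to 3′ along the gene's strand, with each match, or its reverse complement, in capitals. They lie at chr19:34640770-34640828 (plus strand) for Ifit1, chr19:34583358-34583431 (plus) for Ifit3, chr19:34607754-34607827 (plus) for Ifit3b, chr4:156200860-156200911 (minus) for Isg15 and chr12:26456548-26456587 (minus) for Rsad2.
Ifit1: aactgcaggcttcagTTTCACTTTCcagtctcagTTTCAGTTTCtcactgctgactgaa
Ifit3: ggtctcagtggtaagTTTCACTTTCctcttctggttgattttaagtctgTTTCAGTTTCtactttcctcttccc
Ifit3b: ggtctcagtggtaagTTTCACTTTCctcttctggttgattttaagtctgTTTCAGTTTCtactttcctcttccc
Isg15: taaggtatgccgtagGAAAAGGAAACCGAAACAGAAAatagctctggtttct
Rsad2: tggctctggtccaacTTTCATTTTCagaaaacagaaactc

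Ifit1, Ifit3 and Ifit3b each carried 2 cores, Isg15 carried 3 that overlap, and Rsad2 carried 1. The cores began 104 and 85 bases before the start of Ifit1, 78 to 66 bases before that of Isg15 and 120 bases before that of Rsad2. The last core began 122 bases before the start of Ifit3 and 154 before that of Ifit3b, and the printed stretches of these 2 genes were identical at 74 of 74 positions. Ifit3 and Ifit3b are close copies, so reads could be split between them, and their separate values are uncertain. These letters were not found in the windows of Ifit2 and Ifi44. The interferon gamma motif TTCNNNGAA occurred on either strand in 1 of the 7 genes, Ifit2, and in 8.29% of all promoters. A match is a description of the letters and was not tested as a binding site.

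Total counts ran from 11853233 to 16145911 per library. Mcm8 was at 2.60 to 5.19 CPM (counts scaled to a common library size) in the 11 wild-type libraries and at 0.130 to 0.910 CPM in the 8 knockout libraries. The summed level of 8 cardiomyocyte markers was 73710 to 111000 CPM, so every library carried heart RNA. The sum of 8 liver markers varied widely, from 3.09 to 517 CPM over all libraries. Its highest values were 395 CPM in wild-type PBS, 455 in knockout PBS, 517 in wild-type LCWE and 255 CPM in knockout LCWE hearts. Y-linked genes summed to over 50 CPM in 0 of 5 wild-type PBS, 1 of 3 knockout PBS, 1 of 6 wild-type LCWE and 3 of 5 knockout LCWE libraries. Xist, the X inactivation transcript, was over 50 CPM in 5, 2, 5 and 1 of them, and knockout LCWE replicate 2 had neither. Sex-linked levels therefore differ between the groups compared. Each label also carries an unexplained number, under 100 in 5 libraries, from 100 to under 200 in 11 and above that in 3. Replicates below are numbered in accession order, which pairs no libraries.

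The 4 Ifit genes lie side by side on chromosome 19 in GRCm38, Ifit2 at 34550694 to 34576419, Ifit3 at 34583531 to 34588731, Ifit3b at 34607970 to 34613401 and Ifit1 at 34640871 to 34650009. All are protein-coding genes on the plus strand. In knockout hearts their levels fell into a high and a low set of libraries. Ifit1, which binds viral RNA with an unmethylated cap, was at 9.43, 8.85, 8.59, 2.002 and 7.05 CPM in the 5 wild-type PBS libraries. Wild-type LCWE libraries had 4.40 CPM of Ifit1 at the lowest, 6.46 at the median and 11.8 at the highest. Knockout libraries had 17.9, 34.1 and 8.44 CPM of Ifit1 with PBS, and 42.9, 10.1, 7.87, 31.9 and 30.8 CPM with LCWE. Of the 8 knockout libraries, 5 lay above every wild-type library for Ifit1, and the other 3 fell inside the wild-type range.

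Ifit3, which stabilises IFIT1 on RNA in human cells, had the widest spread in CPM of the family. It was at 19.4, 15.6, 19.99, 3.40 and 13.4 CPM in wild-type PBS hearts and between 10.1 and 29.2 CPM, with a median of 16.8, in wild-type LCWE hearts. In the knockout it was at 42.6, 59.0 and 11 CPM with PBS and at 120.6, 16.6, 18.4, 81.4 and 61.2 CPM with LCWE. The same 5 knockout libraries were above all wild-type ones as for Ifit1. Ifit2, linked to cell death as well as to antiviral defence, ranged from 8.94 to 24.6 CPM in wild type and from 15.4 to 72.5 CPM in the knockout. Ifit3b ranged from 1.20 to 8.61 CPM in wild type and from 4.496 to 30.1 CPM in the knockout. For Ifit2 and Ifit3b, too, 5 of 8 knockout libraries exceeded every wild-type library.

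The family members Ifit1bl1 and Ifit1bl2 lie on the minus strand among the 4 Ifit genes. Ifit1bl1 averaged 5.05 ± 1.60 CPM in wild-type PBS (SD, n = 5), 5.28 ± 0.957 in knockout PBS (n = 3), 5.86 ± 0.902 in wild-type LCWE (n = 6) and 5.54 ± 2.08 in knockout LCWE hearts (n = 5). Ifit1bl2 averaged 5.58 ± 0.804, 4.01 ± 1.89, 3.78 ± 1.13 and 3.50 ± 0.620 CPM in the same order. Knockout means of Ifit1bl1 lay within 1 SD of the wild-type mean under the same treatment, and those of Ifit1bl2 lay below it. Of the 5 high libraries, only knockout LCWE replicates 4 and 5, at 7.72 and 7.55 CPM of Ifit1bl1, exceeded the wild-type maximum of 7.21 CPM, and none did so for Ifit1bl2.

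**Figure D1:**
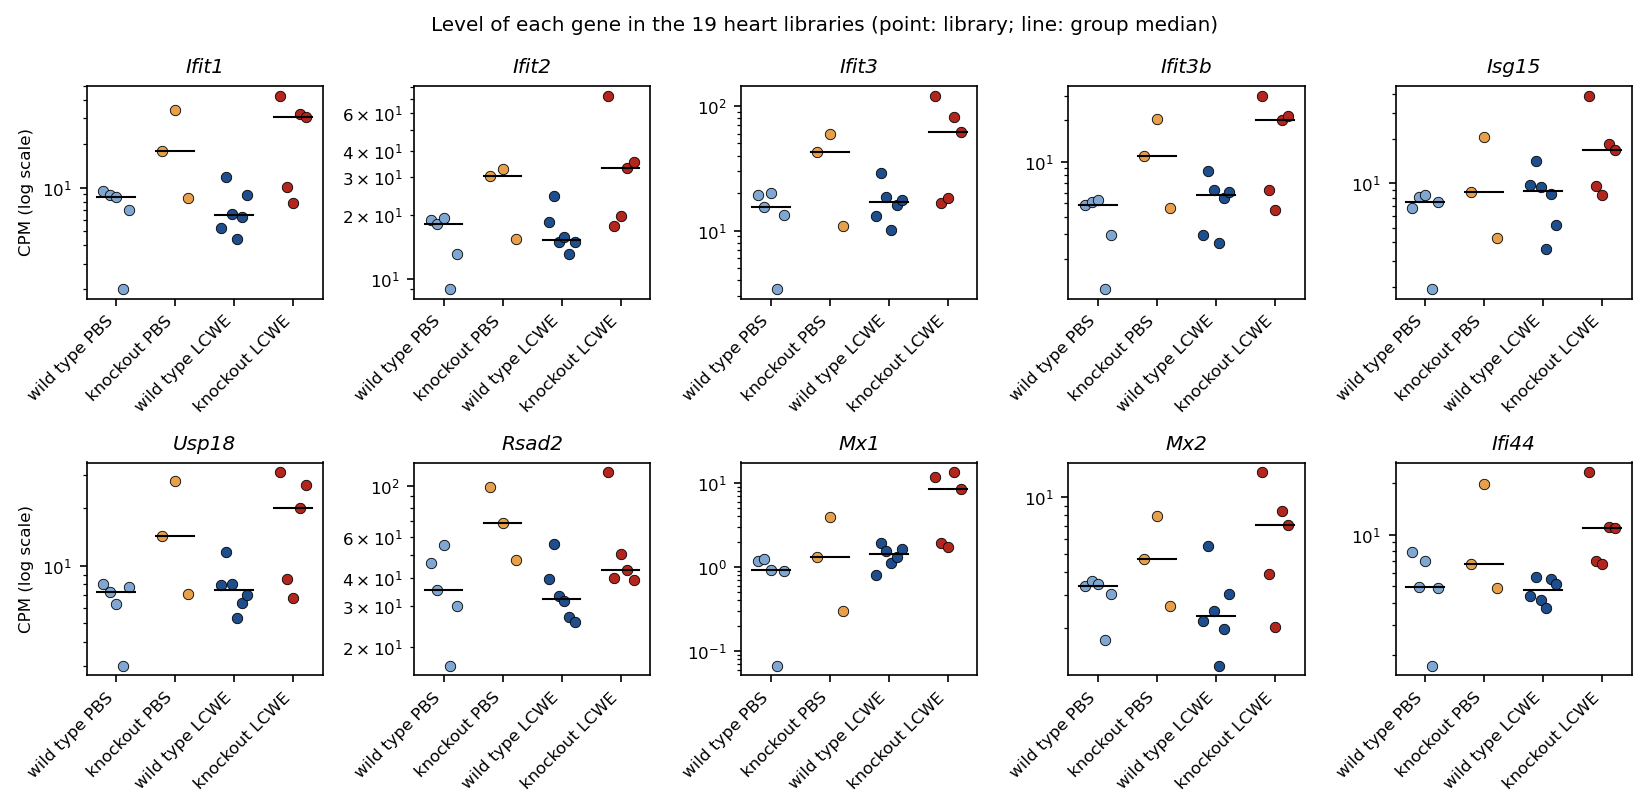
Level of each of the 10 genes in CPM on a log axis, by group, with a point for each library and a line at the group median. For Ifit1, knockout LCWE libraries sat at 42.9, 31.9 and 30.8 CPM or at 10.1 and 7.87 CPM. Wild-type libraries stayed at 11.8 CPM of Ifit1 or lower. The split differed by gene, with 5 of 8 knockout libraries above every wild-type library for Ifit1 and 3 of 8 for Rsad2.

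Isg15 lies on chromosome 4 at 156199424 to 156200818 on the minus strand, and Usp18 on chromosome 6 at 121245906 to 121270917 on the plus strand. Isg15, the ubiquitin-like modifier, was at 6.85, 8.10, 8.36, 1.94 and 7.497 CPM in wild-type PBS hearts, and between 3.62 and 14.2 CPM, with a median of 8.95, in wild-type LCWE hearts. Knockout hearts had 8.75, 20.6 and 4.29 CPM with PBS and 39.1, 9.54, 8.39, 18.6 and 16.8 CPM with LCWE. For Isg15, 4 of the 8 knockout libraries lay above every wild-type library. Usp18, its protease, was at 8.02, 7.29, 6.31, 3.003 and 7.72 CPM in wild-type PBS hearts, and between 5.35 and 11.8 CPM, with a median of 7.46, in wild-type LCWE hearts. In the knockout Usp18 was at 14.3, 27.7 and 7.16 CPM with PBS and at 30.9, 8.503, 6.82, 19.99 and 26.6 CPM with LCWE. The 5 high knockout libraries for Usp18 were the 5 that stood out for Ifit1.

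Rsad2 lies on chromosome 12 at 26442746 to 26456452 on the minus strand. Its level was 46.4, 35.4, 55.6, 16.6 and 30.2 CPM in wild-type PBS hearts, and between 25.6 and 55.98 CPM, with a median of 32.4, in wild-type LCWE hearts. Knockout PBS hearts had 98.8, 68.7 and 47.8 CPM, and knockout LCWE hearts 114.5, 39.9, 50.6, 43.2 and 38.9 CPM. Unlike the Ifit genes, Rsad2 stayed inside the wild-type range in knockout LCWE replicates 4 and 5, and only 3 of the 8 knockout libraries exceeded it.

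Mx1 and Mx2 lie on chromosome 16, at 97447035 to 97462907 (minus strand) and 97535308 to 97560900 (plus strand), and the annotation lists Mx2 as a polymorphic pseudogene. Many laboratory strains carry defective Mx1 and Mx2 alleles, and the strain here is not stated, so the values are of RNA only. Mx1 rested on 1 to 199 counts per library and was at 1.17, 1.25, 0.912, 0.0667 and 0.891 CPM in wild-type PBS hearts. In wild-type LCWE hearts it was between 0.797 and 1.92 CPM, with a median of 1.41. Knockout PBS hearts had 1.33, 3.91 and 0.301 CPM of Mx1, and knockout LCWE hearts 11.8, 1.95, 1.72, 13.5 and 8.59 CPM. The 3 high knockout LCWE libraries were thus over 8 CPM, while all 11 wild-type libraries were under 2 CPM. Mx2 ranged from 1.26 to 5.45 CPM in wild type and from 2.02 to 13.6 CPM in the knockout, where 4 of 8 libraries exceeded every wild-type library.

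Ifi44 lies on chromosome 3 at 151730922 to 151749960 on the minus strand. It was at 7.93, 4.98, 6.99, 1.74 and 4.90 CPM in wild-type PBS hearts, and between 3.77 and 5.64 CPM, with a median of 4.78, in wild-type LCWE hearts. Knockout hearts had 6.79, 19.7 and 4.90 CPM with PBS and 23.0, 7.01, 6.74, 11.04 and 10.9 CPM with LCWE. Ifi44 was the single gene of the 10 for which all 5 knockout LCWE libraries lay above all 6 wild-type LCWE libraries, a pattern that 0.168% of the genes tested showed. Its neighbour Ifi44l had 1 count in each of 3 libraries and 0 in the others.

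Per kilobase of exon, the order of levels in wild-type PBS hearts ran from Isg15 (8.66 ± 3.50 CPM per kb, n = 5), Rsad2 (8.50 ± 3.46) and Ifit3 (8.23 ± 3.85) through Ifit2 (3.99 ± 1.15) to Mx1 (0.226 ± 0.124). The first 3 did not differ beyond their SD. Between them and Mx1 lay Ifit1, Usp18, Ifit3b, Ifi44 and Mx2, at 2.71 ± 1.14, 2.32 ± 0.732, 1.94 ± 0.884, 0.866 ± 0.389 and 0.835 ± 0.205 CPM per kb. In knockout LCWE hearts Ifit3 had the highest mean, 34.2 ± 25.2 CPM per kb (n = 5), followed by Isg15 at 24.4 ± 16.3 and Rsad2 at 13.2 ± 7.43. Among these 3 genes, neighbours in the order differed by less than the larger of their SDs.

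Libraries of the same knockout group differed in their levels of the 10 genes. Knockout PBS replicate 2 and knockout LCWE replicate 1 exceeded all 11 wild-type libraries for 10 of 10 genes. Knockout LCWE replicates 4 and 5 did so for 9 of 10, all but Rsad2, and knockout PBS replicate 1 for 6. Knockout LCWE replicate 2 did so for 1 gene, Mx1, and knockout PBS replicate 3 and knockout LCWE replicate 3 for 0. At the other end, wild-type PBS replicate 4 had the lowest level of all 19 libraries for 9 of the 10 genes. Summed over the 10 genes, it had 40.6 CPM, against 90.7 to 135 CPM in the other 4 wild-type PBS libraries. Knockout LCWE libraries ranged from 121.5 to 499 CPM and wild-type LCWE libraries from 79.4 to 169 CPM, so the 2 groups overlapped in sum. Counts against all 11 wild-type libraries, here and for single genes before, were not taken over all genes tested. The levels of the 10 genes are also correlated across libraries, so counts over them are not independent observations.

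**Figure D2:**
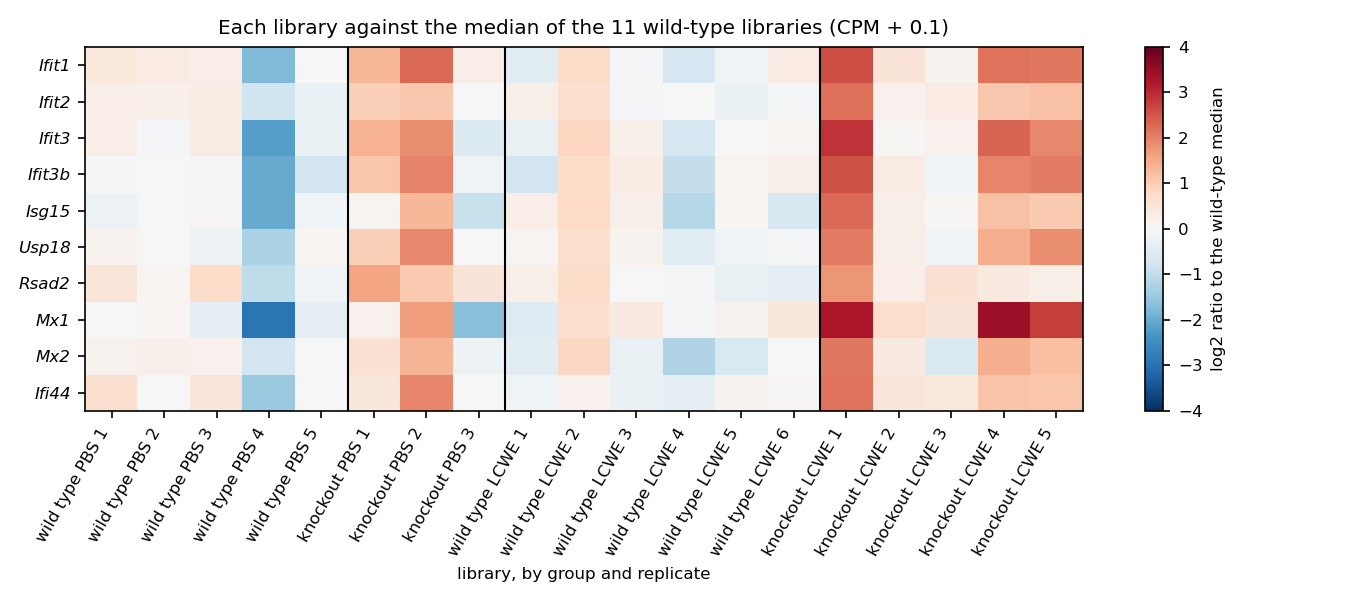
Colour shows the log2 ratio of each library to the median of the 11 wild-type libraries, after 0.1 CPM was added, with genes in rows and the 19 libraries in columns by group. Knockout PBS replicate 2 and knockout LCWE replicates 1, 4 and 5 are red across at least 9 of 10 genes, and wild-type PBS replicate 4 is blue.

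The comparison of genotypes under LCWE asked whether loss of Mcm8 alters the heart's RNA in the vasculitis model. All 10 genes had higher fitted levels in the knockout, with a median log2 fold change of 1.32, against 0.0029 over all genes tested, of which 50.7% were above 0. None of the 10 passed the threshold (edgeR quasi-likelihood test, Benjamini-Hochberg adjusted p under 0.05), where 0.00699% of all genes did, a share that is Mcm8 alone. At an unadjusted p under 0.05 the count was 10 of 10, where 5.55% of all genes met it and 2.43% did so in the higher direction. The largest difference was that of Mx1 (2.43 ± 0.59, log2 fold change ± SE, adjusted p = 0.634), then Ifit3 (1.77 ± 0.54, adjusted p = 0.804) and Ifit1 (1.77 ± 0.46, adjusted p = 0.697). The 95% interval of Mx1, not adjusted for the number of genes, ran from 1.19 to 3.67. The smallest was that of Rsad2 (0.69 ± 0.33, adjusted p = 0.885), with an interval from 0.01 to 1.38. Ifit3b (1.62), Mx2 (1.35), Ifi44 (1.29), Usp18 (1.25), Isg15 (1.12) and Ifit2 (1.07) lay between, with adjusted p from 0.800 to 0.853. DESeq2 passed 1 of the 10, Mx1 (adjusted p = 0.0403), where it passed 0.0559% of all genes.

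The comparison of genotypes under PBS asked what the knockout does to the unchallenged heart. All 10 genes again lay higher in the knockout, with a median log2 fold change of 1.05, against 0.0012 over all genes, of which 50.2% were above 0. None passed the threshold, where 0.601% of all genes did, and 6 of 10 had an unadjusted p under 0.05, where 19.7% of all genes did. The differences ran from Ifit3b (1.64 ± 0.59, adjusted p = 0.146) and Ifit1 (1.49 ± 0.55, adjusted p = 0.151) to Mx2 (0.75 ± 0.49, adjusted p = 0.400) and Ifit2 (0.74 ± 0.38, adjusted p = 0.282). Usp18 had the smallest adjusted p (1.34 ± 0.46, adjusted p = 0.130), and passed by DESeq2 alone (adjusted p = 0.0494), where 4.89% of all genes did. For 0 of the 10 genes did all 3 knockout PBS libraries lie above all 5 wild-type PBS libraries, where 4.10% of all genes did, since knockout PBS replicate 3 lay inside the wild-type PBS range for each of them. The value for Mx1 (1.12 ± 0.75) became -0.05 without knockout PBS replicate 2. The median of the 10 was 0.64 without that library and 0.41 by limma-voom with library weights.

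Averaged over both treatments, which puts 8 knockout against 11 wild-type libraries, the 10 genes had a median log2 fold change of 1.22 for knockout against wild type, and 10 of 10 were above 0, where 50.2% of all genes were. None passed over all libraries, where 0.0140% of all genes did (Mcm8, lower, and Herc6, higher), and 10 of 10 had an unadjusted p under 0.05, where 20.7% did. Several came close to the threshold, with Ifit1 (1.63 ± 0.36, adjusted p = 0.0551), Usp18 (1.30 ± 0.30, adjusted p = 0.0626) and Ifit3b (1.63 ± 0.38, adjusted p = 0.0644) the nearest and Isg15 (0.95 ± 0.36, adjusted p = 0.162) the farthest. By DESeq2, 9 of 10 passed, all but Isg15, with adjusted p from 0.00269 to 0.0303, where 4.70% of all genes passed. Without knockout PBS replicate 2, 5 passed by edgeR (Ifit1, Ifit2, Ifit3b, Usp18 and Rsad2), where 16.5% of all genes did. Without knockout LCWE replicate 3, 4 passed (Ifit1, Ifit3b, Usp18 and Mx1), where 0.875% did. The calls thus turned on the tool and on which library was left out, while all 10 log2 fold changes stayed above 0 under every alternative run, from 0.50 to 2.24.

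**Figure D3:**
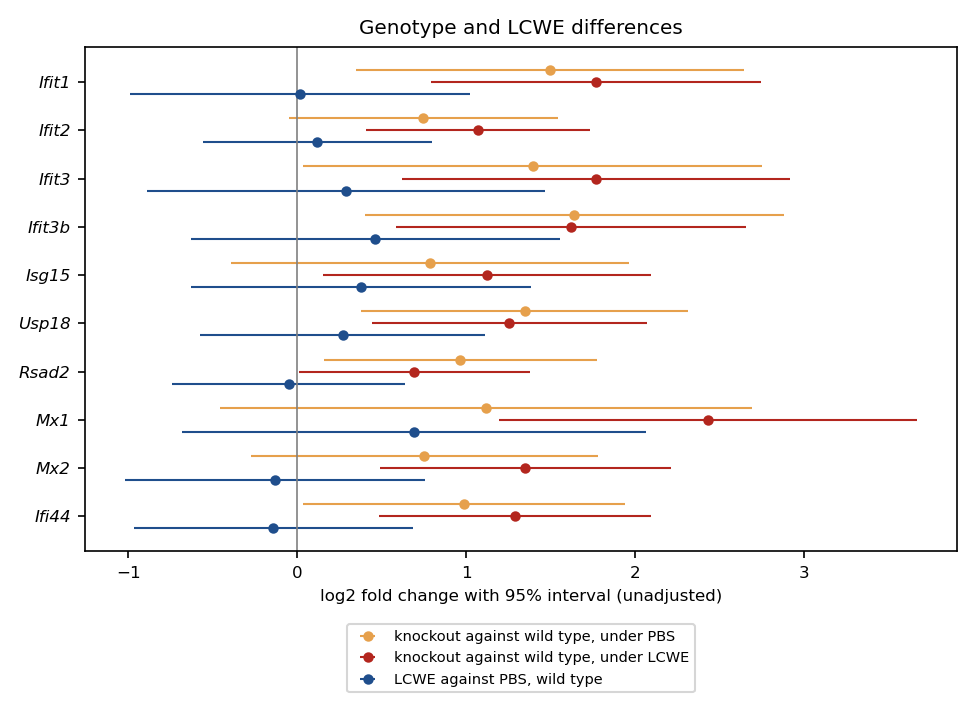
Points are log2 fold changes of the 10 genes and bars their 95% intervals, not adjusted for the number of genes, from the fit of all 19 libraries. Fitted values of knockout against wild type lie above 0 for all 10 genes under both treatments, from 0.69 (Rsad2) to 2.43 (Mx1) under LCWE. Under PBS the intervals of Mx1, Isg15, Mx2 and Ifit2 include 0. Fitted values of LCWE against PBS in wild type lie on both sides of 0 (Rsad2, -0.05, changed sign under 3 alternatives and 3 omissions).

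LCWE itself did not separate these genes in wild-type hearts. Of the 10, 7 lay higher after LCWE, where 51.5% of all genes did, with a median log2 fold change of 0.19 against 0.0071 over all genes. Without wild-type PBS replicate 4, 5 of the 10 lay higher and their median was 0.0012. None passed, at the adjusted threshold or at an unadjusted p under 0.05, where 0.0% and 6.24% of all genes did. Mx1 had the largest difference (0.69 ± 0.66, adjusted p = 0.895, 95% interval from -0.68 to 2.07), and Isg15 differed by 0.37 ± 0.48 (adjusted p = 0.934, interval from -0.63 to 1.38). Rsad2 differed by -0.05 ± 0.33 (adjusted p = 0.986, interval from -0.74 to 0.64). These intervals leave room for changes of more than 1 on the log2 scale in Mx1 and Isg15. So do the upper limits of Ifit3b (1.55), Ifit3 (1.46), Usp18 (1.11) and Ifit1 (1.02), and the lower limit of Mx2 (-1.02).

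In knockout hearts 9 of the 10 lay higher after LCWE than after PBS, where 50.9% of all genes did, with a median log2 fold change of 0.44. None passed, where 2.90% of all genes did, and 1 had an unadjusted p under 0.05, Mx1 (2.01 ± 0.74, adjusted p = 0.118), where 23.4% of all genes did. Isg15 differed by 0.71 ± 0.57 (adjusted p = 0.468) and Rsad2 by -0.32 ± 0.39 (adjusted p = 0.647). Mx1 passed by DESeq2, where 8.81% of all genes did, and without knockout PBS replicate 2, where 20.2% did. Averaged over genotypes, 9 of 10 lay higher with LCWE (51.9% of all genes) with a median of 0.25. None passed, where 2.95% of all genes did, and Mx1 (1.35 ± 0.49, adjusted p = 0.105) was the 1 gene with an unadjusted p under 0.05, where 25.5% were. Mx1 passed in that average, too, by DESeq2 (9.45% of all genes) and without knockout PBS replicate 2 (19.6%).

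The interaction of genotype and treatment tests whether the LCWE difference itself differs between genotypes. No gene in the table passed, the 10 included (0.0% of all genes). At an unadjusted p under 0.05 there were 0 of 10, where 8.01% of all genes met it. The 10 had a median of 0.31, and 7 of them lay above 0, where 47.1% of all genes did. Mx1 again had the largest value (1.31 ± 0.97, adjusted p = 0.746), with an interval from -0.73 to 3.4. The genotype differences under PBS and under LCWE are therefore not shown to differ from each other.

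Herc6, the main ISG15 ligase of the mouse, was the 1 gene of the pathway lists that passed over all libraries in a comparison of genotypes. It lies on chromosome 6 at 57581000 to 57664632 on the plus strand. Its level was 5.01, 5.67, 4.41, 4.14 and 4.23 CPM in wild-type PBS hearts and 7.70, 11.5 and 8.96 CPM in knockout PBS hearts. Wild-type LCWE hearts had between 3.74 and 6.87 CPM, with a median of 4.71, and knockout LCWE hearts 12.3, 6.62, 7.12, 8.81 and 9.37 CPM. Under PBS the genotypes did not overlap, and under LCWE wild-type replicate 2 lay above knockout replicate 2.

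In PBS hearts Herc6 rose with the knockout (1.0003 ± 0.22, edgeR quasi-likelihood test, adjusted p = 0.0468) and averaged over treatments (0.93 ± 0.14, adjusted p = 0.0163). Under LCWE the difference was 0.86 ± 0.18 (adjusted p = 0.501). The PBS call was lost in 19 of 32 alternatives, 13 of them fits that left out 1 library, with log2 fold changes from 0.67 to 1.13 and adjusted p up to 0.298. It was lost without any of the 5 wild-type PBS libraries, without knockout PBS replicate 1 or 3, without wild-type LCWE replicate 1, 4, 5 or 6, and without knockout LCWE replicate 3 or 5. The average was lost in 5 of 31, including without wild-type PBS replicate 3, 4 or 5, with values from 0.71 to 0.997 and adjusted p up to 0.0771. Unlike the 10 antiviral genes, Herc6 was also high in knockout PBS replicate 3.

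Of the 6 genes of ISG15 conjugation, all 6 lay higher in the knockout averaged over treatments, where 50.2% of all genes did. Of them 1 passed, Herc6, where 0.0140% did, and 4 had an unadjusted p under 0.05, where 20.7% did. The 6 include Isg15 and Usp18 themselves, which are already counted among the 10 antiviral genes. The activating enzyme gene Uba7 and the ligase gene Trim25, the list's 2 genes with the highest mean level, were at 54.1 and 76.8 CPM over all libraries.

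Rsad2 was the least like the other 9 genes across the 19 libraries. Likeness was measured as Pearson's r on log2 CPM, which includes the differences between groups and the shared library scaling. The median r of Rsad2 with the other 9 was 0.698, and its lowest was 0.501, with Mx1. For the other genes the median r was 0.873 (Mx1) to 0.933 (Ifit1), and the closest pair was Ifit1 and Ifit3b, at 0.976.

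Rsad2 instead moved with Cmpk2, a mitochondrial nucleotide kinase gene next to it on chromosome 12 (26469204 to 26479837, plus strand). Cmpk2 was at 21.04, 16.01, 19.3, 8.47 and 16.3 CPM in wild-type PBS hearts and at 45.4, 34.8 and 20.6 CPM in knockout PBS hearts. In wild-type LCWE hearts it was between 11.6 and 20.6 CPM, with a median of 15.3, and in knockout LCWE hearts at 52.7, 20.4, 21.1, 25.2 and 18.5 CPM. As for Rsad2, knockout LCWE replicates 4 and 5 stood close to the wild-type range. The r of Cmpk2 was 0.935 with Rsad2, 0.829 with Ifit1 and 0.595 with Mx1, and 0.875, 0.697 and 0.264 in the 17 libraries left without the 2 farthest from the median of the 10 genes' mean level. The Rsad2 promoter window holds a response element core and that of Cmpk2 holds none of these letters.

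**Figure D4:**
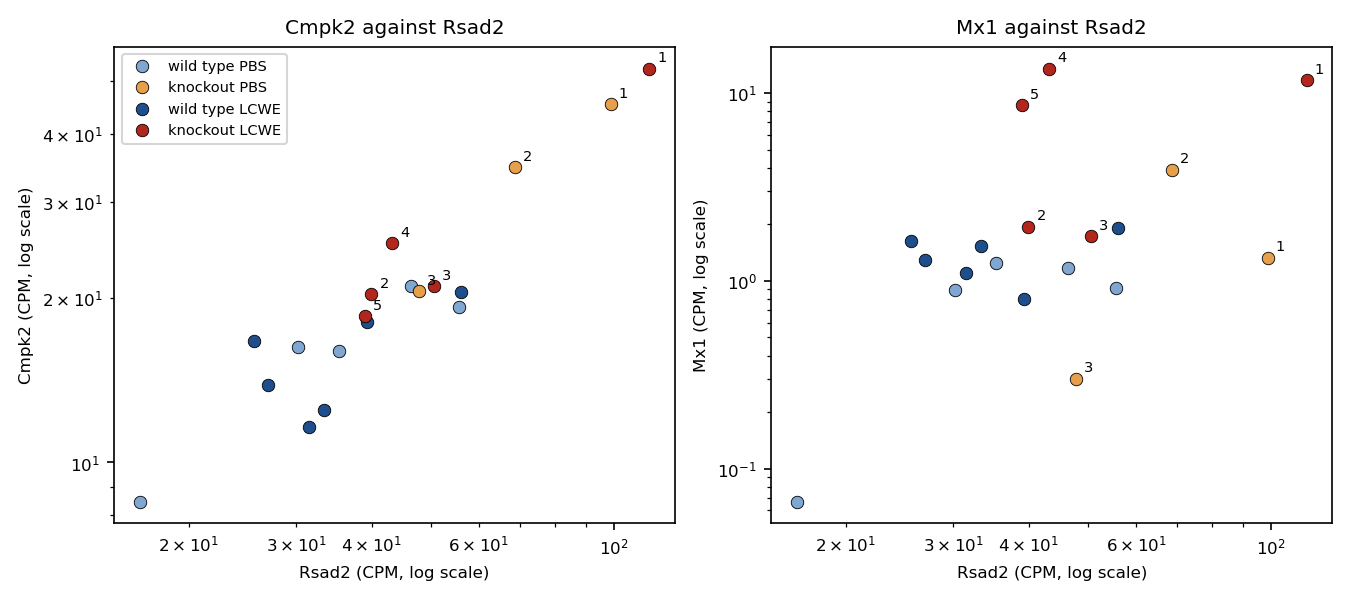
Level of Cmpk2 (left) and Mx1 (right) against Rsad2, in CPM on log axes, with a point for each of 19 libraries coloured by group and knockout replicates numbered. Cmpk2 follows Rsad2 in all groups, while knockout LCWE replicates 4 and 5, at 13.5 and 8.59 CPM of Mx1, have Rsad2 at only 43.2 and 38.9 CPM.

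Outside the 10, the genes whose levels were most like their mean were interferon-stimulated genes as well. The 8 highest values of r over 19 libraries were those of Xaf1 (0.972), Oasl2 (0.962), Adar (0.960), Rtp4 (0.958), Oasl1 (0.958), Irf7 (0.955), Gbp3 (0.949) and Stat2 (0.948). Without the 2 libraries farthest from the median, r was between 0.910 and 0.970 over 17. Irf7, the interferon-induced transcription factor gene, had medians of 24.1 CPM in wild-type PBS, 43.8 in knockout PBS, 27.4 in wild-type LCWE and 109 CPM in knockout LCWE hearts. Its range in knockout LCWE hearts was 25.2 to 185 CPM, which overlapped the 18.3 to 49.0 CPM of wild-type LCWE hearts.

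Other interferon-stimulated genes lay in the same direction. Of a list of 48, 48 had higher fitted levels in the knockout under LCWE, where 50.7% of all genes did. Of them 0 passed, where 0.00699% did, and 39 had an unadjusted p under 0.05, where 5.55% did. Their median log2 fold change was 0.79. The list was chosen with earlier results of these data known. Genes on it such as Xaf1 (r = 0.972) moved with the 10, so its counts are no separate support. Under PBS 46 of 48 were above 0, where 50.2% of all genes were, with a median of 0.59. None of the 48 passed there, where 0.601% of all genes did, and 18 had an unadjusted p under 0.05, where 19.7% did. In the averaged comparison 48 of 48 were above 0, where 50.2% of all genes were, with a median of 0.69. None passed, where 0.0140% of all genes did, and 39 had an unadjusted p under 0.05, where 20.7% did. Ifitm3, an inhibitor of viral entry, and Slfn5 had the highest mean levels of the list, with 127 CPM of Ifitm3 over all libraries. The medians of the 10 antiviral genes, 1.32, 1.05 and 1.22, were larger, and that difference was not tested.

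For interferon receptors and signalling, 11 of 15 genes were above 0 in the averaged comparison, where 50.2% of all genes were, with a median of 0.18. Of the 15, 0 passed, where 0.0140% of all genes did, and 8 had an unadjusted p under 0.05, where 20.7% did. Of 15 tested genes on a list chosen as biased towards interferon gamma, 12 were above 0 and 0 passed. In that list 9 had an unadjusted p under 0.05, with a median of 0.63, and which interferon acts was not tested. DNA and RNA sensors gave 9 of 10, 0 and 2, with a median of 0.19, so their share at an unadjusted p under 0.05 was near that of all genes. The genes with the highest mean level in these lists were Ifngr2 and Jak1 (157 and 154 CPM), Serping1 and Iigp1 (129 and 38.2 CPM), and Mavs and Tbk1 (89.5 and 24.3 CPM).

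The 9 interferon genes that were looked up were not detectable or nearly so at this depth. Ifnb1, Ifna1, Ifna2, Ifna4, Ifne, Ifnl2 and Ifnl3 had 0 counts in all 19 libraries, which allows up to 3 counts, or 0.186 to 0.253 CPM, in a library (counting error only). Ifnk had 2 counts in 1 library, and Ifng had 7 counts in all, spread over 6 libraries. None of the 9 entered the tests, so they give no ligand difference to set beside the 10 genes. Other interferon genes were not looked up.

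Marker levels of leukocytes were set beside these results because leukocytes can express the 10 genes strongly. In whole-heart RNA, fewer cells of a type and less RNA per cell cannot be told apart. The 14 macrophage and monocyte markers summed to 332 to 403 CPM in wild-type PBS, 178 to 454 in knockout PBS, 365 to 841 in wild-type LCWE and 448 to 1350 CPM in knockout LCWE hearts. Under LCWE 14 of 14 lay higher in the knockout, where 50.7% of all genes did, with a median log2 fold change of 0.39. Of them 0 passed, where 0.00699% of all genes did, and 2 had an unadjusted p under 0.05, where 5.55% did. Under PBS 2 of 14 lay higher, where 50.2% of all genes did, with a median of -0.33. There 0 passed, where 0.601% did, and 1 had an unadjusted p under 0.05, where 19.7% did. The 10 antiviral genes lay higher in the knockout under both treatments, and their relation to these markers was not tested.

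Library by library the macrophage sum and the antiviral genes did not keep the same order. Knockout LCWE replicate 1, the highest for the antiviral genes with 499 CPM in sum, had a macrophage sum of 501 CPM. Wild-type LCWE replicate 3 had a macrophage sum of 841 CPM and 105 CPM of the antiviral genes. Knockout PBS replicate 1 had 197 CPM of macrophage markers and 236.5 CPM of the antiviral genes. Other libraries did go together. Knockout LCWE replicates 4 and 5 were high in both, with 1350 and 820 CPM of macrophage markers. Knockout PBS replicate 2 was the highest PBS library in both, with 454 CPM of macrophage markers and 295 CPM of the antiviral genes. Knockout PBS replicate 3 was the lowest knockout library in both, with 178 and 106.5 CPM. The relation over all libraries was not tested.

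**Figure D5:**
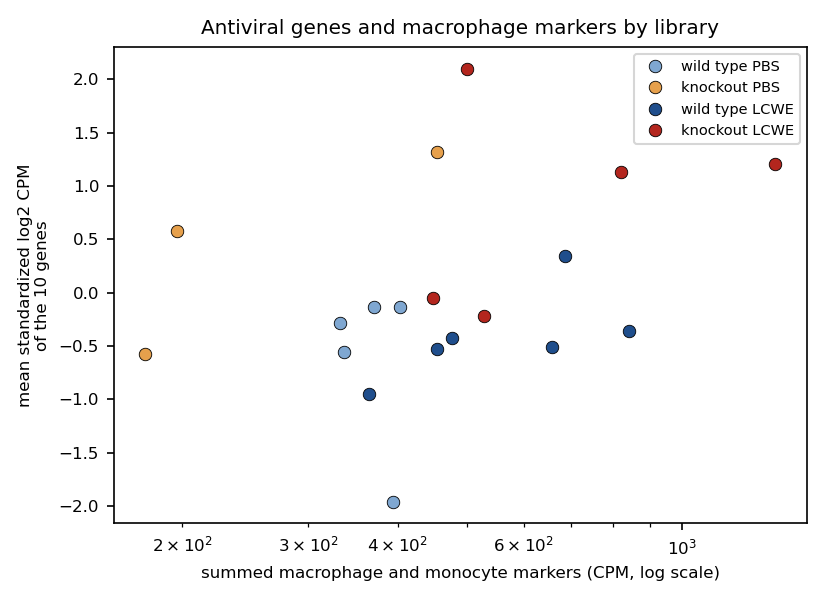
Mean standardized log2 CPM of the 10 genes against the summed level of 14 macrophage and monocyte markers in CPM on a log axis, with a point for each of 19 libraries coloured by group. The highest library, knockout LCWE replicate 1, sits at 501 CPM of macrophage markers, and wild-type LCWE replicate 3, at 841 CPM, lies below 0. Knockout LCWE replicates 4 and 5, at 1350 and 820 CPM, are high in both.

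Neutrophil markers summed to 2.66 to 9.41 CPM in wild-type PBS, 3.57 to 5.83 in knockout PBS, 7.23 to 59.1 in wild-type LCWE and 6.57 to 111 CPM in knockout LCWE hearts, and 7 of 12 could be tested. Under LCWE 7 of these 7 lay higher in the knockout, where 50.7% of all genes did, with a median log2 fold change of 0.78. Under PBS 0 of 7 did, where 50.2% of all genes did, with a median of -0.54. None had an unadjusted p under 0.05 in either, where 5.55% and 19.7% of all genes did. T and NK cell markers ranged from 1.54 to 15.3 CPM and B cell markers from 1.26 to 9.54 CPM over all libraries. Plasmacytoid dendritic cells are a main source of type I interferon, and 2 of the 8 genes on their list, Cox6a2 and Tcf4, are also expressed in heart and made up nearly all of its sum of 1654 to 3862 CPM. Their more specific marker Siglech was at 0 in 5 libraries and at most at 1.19 CPM, in wild-type LCWE replicate 3. Endothelial markers ranged from 1285 to 2092 CPM, fibroblast markers from 936.5 to 2132 CPM, and smooth muscle and pericyte markers from 973 to 1896 CPM. Genotype medians under LCWE were 0.01, 0.12 and 0.16 in log2 fold change for these last 3 lists. Under PBS they were 0.16, -0.67 and -0.22, with 1, 5 and 3 of 8 genes at an unadjusted p under 0.05, where 19.7% of all genes were, and 0 passed in any of the 3. Cardiomyocyte markers had genotype medians of -0.13 under LCWE and -0.18 under PBS. In each, 2 of 8 had an unadjusted p under 0.05, where 5.55% and 19.7% of all genes did, and 0 passed. The part of cell content in the antiviral differences was not tested beyond these values.

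Of the 5 high knockout libraries, 3 had label numbers under 100 and 2 had numbers from 100 to under 200. Among the 5 libraries numbered under 100, all 3 knockout libraries (PBS replicate 2, LCWE replicates 4 and 5) lay above both wild-type libraries (LCWE replicates 5 and 6) for 10 of 10 genes, where 10.7% of all genes did so. Ifit3, for example, was at 59.0 to 81.4 CPM in the knockout and 16.2 to 17.5 CPM in wild type. Among the 11 libraries from 100 to under 200, with 4 knockout and 7 wild-type, 0 of 10 genes separated the genotypes, where 0.266% did, and Ifit3 was at 16.6 to 120.6 and 3.40 to 29.2 CPM. The 3 libraries above that, with 1 knockout, allow no test.

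Fitted within the libraries under 100, a choice made after the values were seen, knockout against wild type under LCWE passed for 9 of the 10 genes, all but Rsad2. That fit has 2 libraries on each side and 1 more, knockout PBS, that adds nothing to its estimate of spread, and 0.944% of all genes passed in it. Its knockout LCWE libraries, replicates 4 and 5, were already known as high, and the low replicates 2 and 3 are outside it. The count of genes that passed therefore restates that choice and is no separate support. The 9 had log2 fold changes from 1.04 to 2.91 and adjusted p from 0.00409 to 0.0490, and Rsad2 had 0.64 (adjusted p = 0.0810). In the range from 100 to under 200 none of the 10 passed under LCWE, where 0.0% of all genes did, and their median log2 fold change was 1.07. None passed under PBS either, where 27.0% of all genes did in a comparison with 1 knockout library, with a median of 1.05, or averaged, where 22.7% did, with a median of 0.997. The lone knockout PBS library is assumed there to vary like the other groups. With the range as a covariate over all libraries, 1 gene passed in the averaged comparison, Rsad2 (0.93, adjusted p = 0.0496), where 1.82% of all genes did. Which feature of the samples the numbers record is not known.

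Libraries with Y-linked reads and libraries with Xist were both found among the high knockout libraries. Of the 5 that were high for Ifit1, PBS replicate 1 and LCWE replicates 1 and 5 had Y-linked reads, and PBS replicate 2 and LCWE replicate 4 had Xist. Knockout PBS replicate 1 was above all wild-type libraries for only 6 of the 10 genes. Among the 13 libraries with Xist over 50 CPM, 0 of 10 genes separated the 3 knockout from the 10 wild-type libraries, where 0.783% of all genes did. A fit of those libraries alone gave a median log2 fold change of 1.48 under LCWE, from 1 knockout library assumed to vary like the other groups, and 1.26 under PBS. With the Y-linked level as a covariate the medians were 1.29 and 1.10. None of the 10 passed in either fit. In the libraries with Xist 0.122% of all genes passed under LCWE and 0.00677% under PBS, and with the covariate 0.00699% and 0.0%, so few genes of any kind passed, and the part of sex in the differences was not tested further.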

How the data were processed

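RNA sequencing counts of mouse heart were analysed in 19 libraries, grouped by the labels' genotype and treatment into 4 groups. Total RNA went through reverse transcription and preamplification in a whole-transcriptome amplification kit, per the labels' protocols. The authors deposited whole-number counts per gene symbol in 1 table, not normalized, with 0 columns from samples outside the series. The submitters' processing notes name STAR 2.7.8a, limma and GRCm38 without their roles. How reads were counted, with which annotation and strand setting, is not given in the sources used here, so overlapping genes may share reads.

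Here, edgeR 4.0.16 in R 4.3.3 kept genes by filterByExpr (minimum count 10, total 15), scaled by TMM and fitted a robust quasi-likelihood model with all 4 groups. It gave 7 contrasts, with Benjamini-Hochberg adjustment over all 14301 genes and a threshold of 0.05. CPM were scaled by TMM, with a prior count of 2 on the log2 scale. Coordinates are from GENCODE M21 and promoters from RefSeq. Alternatives were RLE, library totals, other filters, a non-robust fit, limma-voom (limma 3.58.1) with and without weights, DESeq2 1.42.0, only the groups compared, covariates or subsets by label number and sex-linked level, and leaving out each library. The procedure was tested on simulated data in which genes varied independently of each other, unlike the 10 genes here. Replicates did not look like duplicates (lowest chi-square per gene over 12546 genes 2.09 within and 2.27 between groups).

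The 10 genes and all lists were chosen with earlier results of these data known. Named beside them are neighbours, called list genes or else the 2 with the highest mean level, and the 8 genes most like their mean. The subsets by Xist and under 100 were added after the data were seen.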

Additional observations from a re-analysis of the deposited data

Results flagged for a closer look

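A test for a value far from the rest of its group (Dixon's gap over range, on log2 CPM) was applied to each gene in the groups of 5 or 6 libraries, 30 sets in all. It marked 7, where chance marks about 5%. In wild-type PBS hearts, replicate 4 was far below the other 4 libraries for Ifit1 (2.002 CPM), Ifit3 (3.40 CPM), Isg15 (1.94 CPM), Usp18 (3.003 CPM), Mx1 (0.0667 CPM, 1 count) and Mx2 (1.74 CPM). The 6 values come from 1 library and are not independent of each other. In knockout LCWE hearts, replicate 1 was far above the other 4 for Rsad2, at 114.5 CPM against 38.9 to 50.6 CPM. Without wild-type PBS replicate 4, and without knockout LCWE replicate 1, none of the 10 genes passed in any genotype comparison.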

How the results depend on the processing

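No paired analysis was possible because each label number occurs once and no label ties libraries of different groups. The count of the 10 genes that passed was 0 in every comparison over all libraries with edgeR. With DESeq2 it was 1 for LCWE in the knockout, knockout under PBS, knockout under LCWE and LCWE averaged, and 9 for knockout averaged. It was 1 for knockout averaged with the label-number range as covariate and 9 for knockout under LCWE with label numbers under 100 only. In that subset both knockout LCWE libraries are among the high ones. Leaving out 1 library gave 0 to 1 for LCWE in the knockout and LCWE averaged, 0 to 5 for knockout averaged, and 0 in the other 4 comparisons. For knockout against wild type, no log2 fold change of the 10 genes changed sign under LCWE (330 values, down to 0.28) or averaged (310 values, down to 0.50). Under PBS, 2 of 320 did, both Mx1, which was -0.20 by limma-voom with library weights and -0.048 to 1.61 with 1 library left out. Rsad2 changed sign for LCWE in wild type, to 0.018 by limma-voom, 0.11 with the range as covariate and 0.13 within 100 to under 200, and ran from -0.24 to 0.13 with 1 library left out. For LCWE in the knockout it was 0.19 by limma-voom with library weights. The median over the 10 genes ran from 0.0012 (without wild-type PBS replicate 4) to 0.27 (without wild-type PBS replicate 1) for LCWE in wild type, and from 0.059 to 0.34 under its other alternatives. It ran from 0.049 to 0.96 for LCWE in the knockout, 0.079 to 0.49 for LCWE averaged and -0.096 to 0.88 for the interaction with 1 library left out, lowest without knockout LCWE replicate 1 and highest without knockout PBS replicate 2. The cause was not tested. Only the groups compared could not give another value for the interaction and the averages, which use all groups. Mx1, with 1 to 199 counts per library, is the gene whose precision counting limits most.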
